A study of Mus musculus with 6 samples.

Results

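The genes described here are 65 transcripts, most of them known from heart muscle, that stood highest in a single library of natural killer (NK) cells. They were selected on measured values, from 559 genes in the authors' deposited table: a TPM (a level corrected for transcript length and scaled to the same total in each library) of at least 1 in oleic acid (OA) replicate 3, and at least 5 times the TPM of OA replicate 1. NK cells, lymphocytes that kill infected and tumour cells, came from spleens of C57BL/6 mice and were kept, once purified, for 36 h without OA (3 control libraries) or with 0.2 mM OA, a monounsaturated fatty acid (3 OA libraries). The sources used here give neither the age nor the number of the mice. The labels state that the treatment was carried out once and do not say that the libraries came from separate animals, so p-values measure only the spread between these libraries. Each gene in the table has an authors' Q value under 0.05 for OA against control, and a gene that is not listed is not thereby unchanged.

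Heart muscle cells contract through sarcomeres, in which thick filaments of myosin pull on thin filaments of actin under the control of troponin. Calcium released from and pumped back into the sarcoplasmic reticulum starts and ends each beat. The muscle runs mainly on fatty acids burned in mitochondria, with myoglobin to hold oxygen and creatine kinase to buffer ATP. NK cells have no sarcomeres.

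All 4 genes named as markers of heart muscle, Myh6, Myl2, Mb and Pln, were among the 65, which the selection by level favours. These markers and the lists below were chosen with earlier results of these data known. The counts that follow are therefore a description of the set and not a test of its identity. Of 162 symbols on the 7 heart and muscle lists, 44 were listed and 39 of those were selected. These 39 held 98.3% of the summed TPM of the selected genes in OA replicate 3, and the other 26 genes held 1.66%. The muscle lists do not separate heart from skeletal muscle in every case. However, 0 of 16 fast skeletal muscle markers and 0 of 7 smooth muscle markers were listed; the level of an unlisted gene is not known here. Of the chamber markers, 2 of 4 ventricular genes (Myl2 and Myl3) and 1 of 8 atrial genes (Nppa) were listed, and all 3 were selected.

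The summed TPM of the 65 genes was 48.2, 75.8 and 59.2 in control replicates 1, 2 and 3, and 71.7, 607 and 8172 in OA replicates 1, 2 and 3. OA replicate 3 was thus the highest library and OA replicate 2 the next, while OA replicate 1 lay within the range of the controls. The sum came to 0.817% of all transcripts in OA replicate 3, 0.0607% in OA replicate 2 and 0.00717% in OA replicate 1. OA replicate 3 was highest for 65 of 65 genes, as the selection favours, and 62 of them ran in the order OA replicate 3, 2, 1. The exceptions were Lims2, Myh7 and Slc36a2, each higher in OA replicate 1 than in OA replicate 2. The selection sets OA replicate 3 above OA replicate 1, so only the place of OA replicate 2 was free. How often other listed genes took this order was not counted. Of the 65 genes, 17 reached 1 TPM in OA replicate 1 and 31 in OA replicate 2. In OA replicate 3, 14 genes of at least 100 TPM held 89.7% of the sum.

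**Figure D1:**
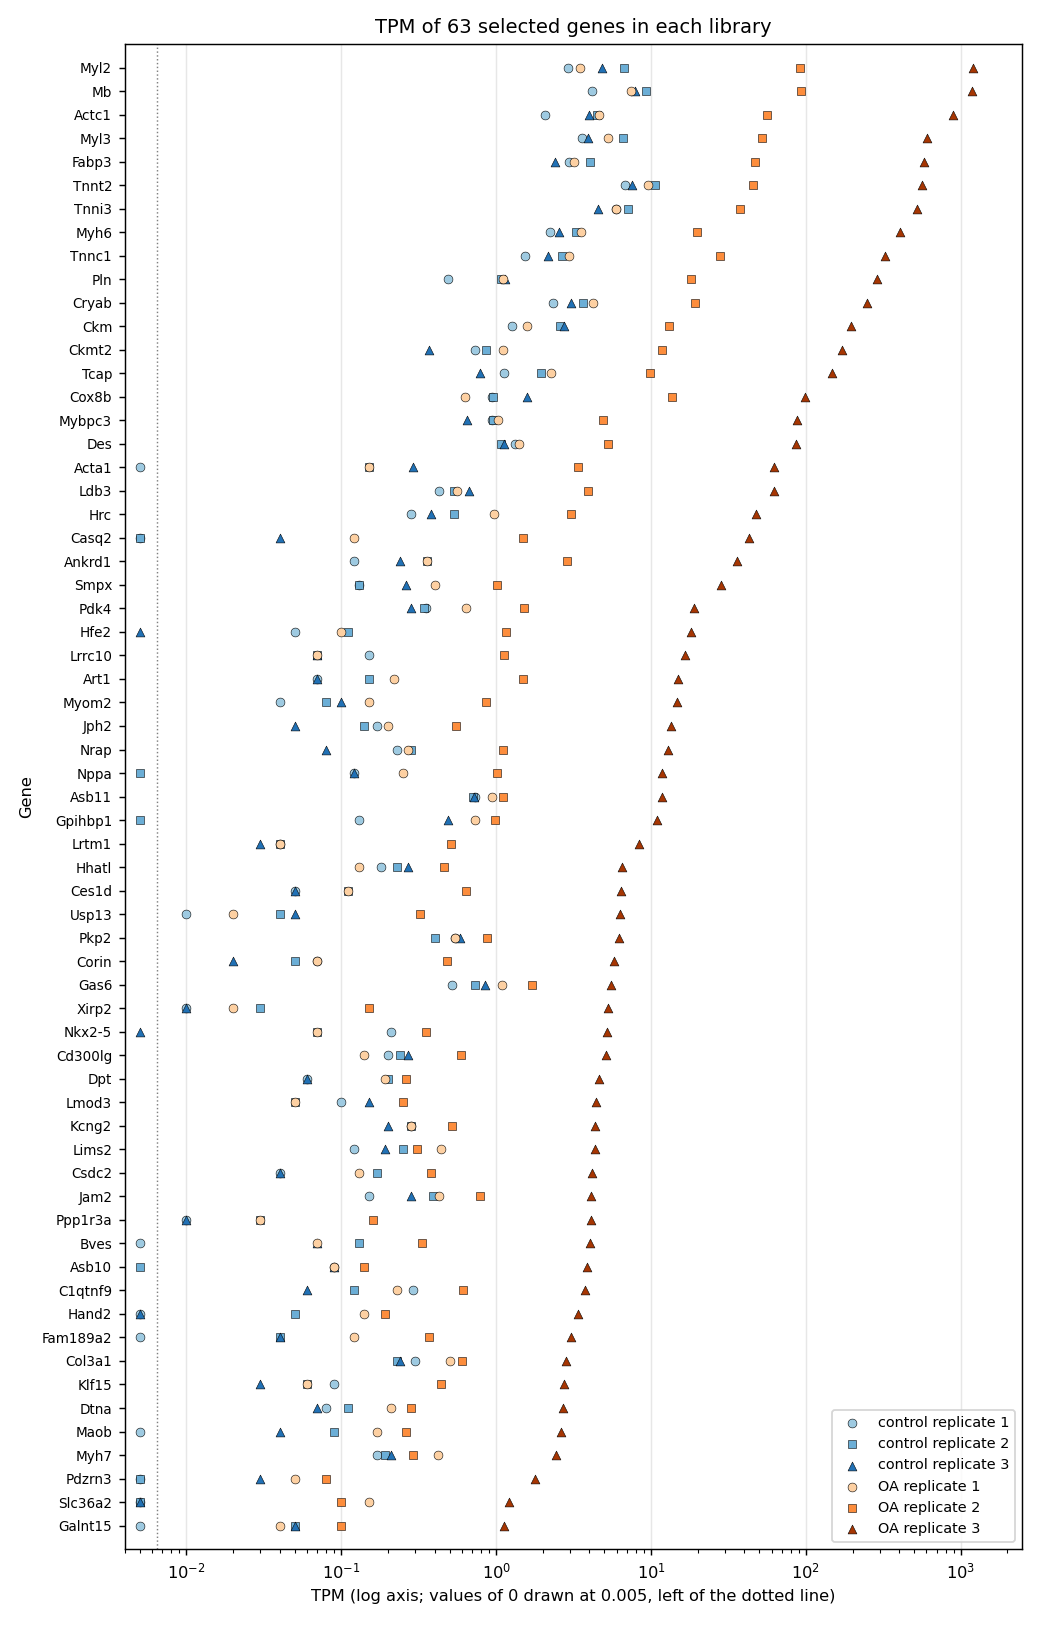
TPM on a log axis for 63 of the 65 selected genes (rows, ordered by OA replicate 3) in the 3 control (blue) and 3 OA (orange) libraries, 1 point a library; values of 0 are drawn left of the dotted line. OA replicate 3 spans 1.13 to 1206 TPM, and OA replicate 2 lies between it and the other libraries for most genes.

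The listed NK cell markers were lower in each OA library than in each control, and lowest in OA replicate 3. Of 12 NK markers, 9 were listed (Ncr1, Klrd1, Klrk1, Gzma, Gzmb, Prf1, Nkg7, Eomes and Klre1), and each of the 9 was lowest in OA replicate 3. Their summed TPM was between 3371 and 4121 in the controls and 2802, 2623 and 2161 in OA replicates 1, 2 and 3. The sum was thus below every control in each OA library. These genes were listed through the authors' test of OA against control, so listing alone could give this. The selected genes summed to 71.7, 607 and 8172 TPM in the same OA libraries. How often other listed genes lower in OA were lowest in OA replicate 3 was not counted. The levels of the unlisted NK markers are not known here. In bulk RNA, fewer cells of a type and less RNA per cell cannot be told apart. The part of cell mixture in the high transcripts was not tested.

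The 65 genes lay on 19 chromosomes, with at most 7 on 1 of them. Among all 65, Myh7 was the 1 gene whose nearest coding gene, Myh6, was also selected. Their promoters were examined because the genes were high together, and are shown for comparison with the levels given below. RefSeq windows (GRCm38.p6), from 250 bases before to 50 bases after a start, were found through gene IDs for 46 of the 65 genes, in 54 windows. Heart genes are known to be read by MEF2, SRF (which binds the CArG box), GATA and TEAD (which binds the M-CAT element CATTCC) factors. The windows of 4 genes with 1 annotated start are shown, the 2 most abundant such genes and the markers Myh6 and Pln, with letters that match a TATA box (TATAAA), the M-CAT element, a MEF2 site, a CArG box or a GATA site (NGATAN, with A or T first and A or G last) on either strand in capitals.
Actc1 (chr2:114052826-114053125, minus strand): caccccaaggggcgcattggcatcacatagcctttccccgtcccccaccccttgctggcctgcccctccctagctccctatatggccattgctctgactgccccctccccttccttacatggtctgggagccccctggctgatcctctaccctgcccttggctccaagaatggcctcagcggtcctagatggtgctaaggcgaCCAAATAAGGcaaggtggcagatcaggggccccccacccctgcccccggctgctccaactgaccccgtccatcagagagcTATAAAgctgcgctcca
Myl3 (chr9:110763428-110763727, plus strand): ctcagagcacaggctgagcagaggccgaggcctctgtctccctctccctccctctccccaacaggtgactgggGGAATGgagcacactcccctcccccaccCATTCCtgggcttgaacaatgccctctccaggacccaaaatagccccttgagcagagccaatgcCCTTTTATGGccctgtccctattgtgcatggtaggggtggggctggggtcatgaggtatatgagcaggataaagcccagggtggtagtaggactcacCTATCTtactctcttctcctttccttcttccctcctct
Myh6 (chr14:54966558-54966857, minus strand): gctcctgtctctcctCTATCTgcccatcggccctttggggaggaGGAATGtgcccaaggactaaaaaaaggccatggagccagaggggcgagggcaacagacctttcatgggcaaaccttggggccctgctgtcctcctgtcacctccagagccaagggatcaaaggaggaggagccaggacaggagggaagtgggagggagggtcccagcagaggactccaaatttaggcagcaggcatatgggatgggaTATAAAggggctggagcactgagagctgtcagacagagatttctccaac
Pln (chr10:53337436-53337735, plus strand): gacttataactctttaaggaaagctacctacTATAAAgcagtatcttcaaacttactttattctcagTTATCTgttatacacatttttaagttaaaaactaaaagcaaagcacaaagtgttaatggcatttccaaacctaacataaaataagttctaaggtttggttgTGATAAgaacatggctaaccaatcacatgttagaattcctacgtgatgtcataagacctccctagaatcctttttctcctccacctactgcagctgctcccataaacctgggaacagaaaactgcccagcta

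Actc1 held a CArG box from 47 to 38 bases before its annotated start, and Myl3 held one from 85 to 76 bases before and 2 M-CAT matches. Over the 54 windows a CArG box was found in 9.26% (5 windows, with overlapping windows of Ldb3 among them). It was found in 2.45% of 490 windows of the other listed genes and 1.63% of all 32851 windows. A MEF2 site was found in 9.26%, 2.86% and 3.19% of the same sets. A TATA box was found in 22.2%, 14.9% and 13.6%, an M-CAT element in 20.4%, 12.2% and 14.7%, and a GATA site in 37.0%, 21.8% and 29.8%. The motifs can overlap, as can the windows of a gene with several starts. A match is only a match of letters, and no test was made between the sets. The windows were poor in CpG: the median ratio of observed to expected CpG was 0.237, against 0.464 for the other listed genes and 0.384 for all windows.

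Thick filament genes included the most abundant transcript. In the replicate order 1, 2 and 3, which holds for all values below, Myl2, the regulatory myosin light chain of the ventricle, stood at 2.92, 6.64 and 4.83 TPM in the controls and 3.46, 92.2 and 1206 TPM in the OA libraries. Only OA replicates 2 and 3 left the range of the controls. Myl3, the essential light chain, stood at 3.57, 6.54 and 3.94 TPM in the controls and 5.28, 51.7 and 607 TPM in the OA libraries. Myh6, the alpha myosin heavy chain and main motor of the adult mouse heart, stood at 2.22, 3.29 and 2.53 TPM in the controls and 3.55, 19.6 and 407 TPM in the OA libraries. It lies at chr14:54941921-54968017 (GRCm38) beside Myh7, the beta heavy chain of the fetal heart and slow muscle, at chr14:54970684-54994626, at a distance of 2667 bases. Myh7 was low in all libraries, at 0.17, 0.19 and 0.21 TPM in the controls and 0.42, 0.29 and 2.44 TPM in the OA libraries. OA replicate 1 exceeded OA replicate 2 for Myh7, against the order of its neighbour. The heavy chain genes are similar in sequence, and how shared reads were divided between them was not tested. Mybpc3, myosin binding protein C of the heart, stood at 0.94, 0.95 and 0.65 TPM in the controls and 1.03, 4.92 and 87.1 TPM in the OA libraries, and the M-line gene Myom2 reached 0.86 and 14.8 TPM in OA replicates 2 and 3.

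Thin filament genes gave the largest class sum, 2385 TPM in OA replicate 3 over 7 genes. Actc1, the cardiac actin, whose promoter holds the CArG box shown above, stood at 2.08, 4.47 and 3.97 TPM in the controls and 4.64, 56.3 and 896 TPM in the OA libraries. The 3 troponin subunits that make the filament sensitive to calcium were all present. Tnnt2, which ties troponin to tropomyosin, stood at 6.8, 10.6 and 7.5 TPM in the controls and 9.57, 45.2 and 563 TPM in the OA libraries. The inhibitory subunit gene Tnni3 stood at 5.98, 7.05 and 4.57 TPM in the controls and 5.9, 37.3 and 523 TPM in the OA libraries. Tnnc1, the calcium sensor, stood at 1.54, 2.66 and 2.16 TPM in the controls and 2.94, 27.8 and 323 TPM in the OA libraries. For each of the 3, the control libraries and OA replicate 1 lay within a few TPM of each other. Acta1, the skeletal actin that the heart also makes, stood at 0, 0.15 and 0.29 TPM in the controls and 0.15, 3.36 and 62.3 TPM in the OA libraries. Acta1 and Actc1 encode near-identical proteins, and how shared reads were divided between the 2 genes was not tested, so their separate levels may be uncertain. Nrap and Lmod3, which help build actin filaments, reached 1.1 and 12.9 TPM and 0.25 and 4.41 TPM in OA replicates 2 and 3.

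Z-disc and cytoskeleton genes, which anchor the filaments and link them to the cell, summed to 611 TPM in OA replicate 3 over 7 genes. Cryab, a small heat shock chaperone of desmin and also made outside muscle, stood at 2.32, 3.61 and 3.03 TPM in the controls and 4.21, 19.3 and 247 TPM in the OA libraries. Tcap, the titin cap, stood at 1.12, 1.95 and 0.79 TPM in the controls and 2.27, 9.88 and 147 TPM in the OA libraries. Des, the muscle intermediate filament desmin, stood at 1.32, 1.07 and 1.12 TPM in the controls and 1.4, 5.3 and 85.6 TPM in the OA libraries. Ldb3, a Z-disc scaffold, stood at 0.43, 0.53 and 0.67 TPM in the controls and 0.56, 3.9 and 62 TPM in the OA libraries. All 4 were above every control in OA replicates 2 and 3. Ankrd1, a stretch-responsive protein gene, Smpx and Xirp2 reached 2.88 and 36 TPM, 1.01 and 28.2 TPM and 0.15 and 5.3 TPM in OA replicates 2 and 3.

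Calcium handling genes summed to 409 TPM in OA replicate 3 over 5 genes, and to at most 2.47 TPM in the controls and OA replicate 1. Pln, phospholamban, the brake on the calcium pump of the sarcoplasmic reticulum, stood at 0.49, 1.08 and 1.14 TPM in the controls and 1.11, 18.1 and 288 TPM in the OA libraries. Casq2, cardiac calsequestrin, the calcium store protein, stood at 0, 0 and 0.04 TPM in the controls and 0.12, 1.5 and 43.1 TPM in the OA libraries, with 2 controls listed at 0. Hrc, another calcium-binding protein of that store, stood at 0.28, 0.53 and 0.38 TPM in the controls and 0.97, 3.02 and 47.6 TPM in the OA libraries. Lrrc10, a heart-restricted leucine-rich repeat protein gene, stood at 0.15, 0.07 and 0.07 TPM in the controls and 0.07, 1.12 and 16.5 TPM in the OA libraries. Jph2, junctophilin 2, which holds the store against the cell membrane, reached 0.55 and 13.5 TPM in OA replicates 2 and 3. The pump gene Atp2a2 and the release channel gene Ryr2 were not listed. Among the channel and junction genes, Bves, a membrane protein gene of the Popeye family, stood at 0, 0.13 and 0.07 TPM in the controls and 0.07, 0.33 and 4.05 TPM in the OA libraries.

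Muscle metabolism genes summed to 2261 TPM in OA replicate 3 over 8 genes. Mb, myoglobin, stood at 4.18, 9.29 and 7.84 TPM in the controls and 7.43, 93 and 1178 TPM in the OA libraries. Its 3 control values and OA replicate 1 overlapped. Fabp3, the fatty acid carrier of heart and muscle cytosol, stood at 2.97, 4.02 and 2.38 TPM in the controls and 3.16, 47.1 and 579 TPM in the OA libraries. The creatine kinases of the cytosol and of mitochondria were both present. Ckm stood at 1.26, 2.57 and 2.76 TPM in the controls and 1.57, 13.2 and 195 TPM in the OA libraries. Ckmt2 stood at 0.73, 0.86 and 0.37 TPM in the controls and 1.1, 11.7 and 172 TPM in the OA libraries. Pdk4, the kinase that shuts off pyruvate dehydrogenase when fatty acids are burned and a target of fatty acid sensing receptors in many tissues, stood at 0.35, 0.34 and 0.28 TPM in the controls and 0.64, 1.51 and 18.8 TPM in the OA libraries. Pdk4 was above every control in all 3 OA libraries, which held for 30 of the 65 genes and for 45.1% of all listed genes. The respiratory chain subunit gene Cox8b reached 13.6 and 99 TPM, the ADP-ribosyltransferase gene Art1 1.5 and 14.9 TPM and the glycogen regulator gene Ppp1r3a 0.16 and 4.07 TPM in OA replicates 2 and 3.

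The natriuretic peptide and heart regulators were low but followed the same order. Nppa, atrial natriuretic peptide, stood at 0.12, 0 and 0.12 TPM in the controls and 0.25, 1.01 and 11.7 TPM in the OA libraries. Corin, the protease that activates this peptide, stood at 0.07, 0.05 and 0.02 TPM in the controls and 0.07, 0.48 and 5.73 TPM in the OA libraries. Nkx2-5, a homeobox factor of heart development, stood at 0.21, 0.07 and 0 TPM in the controls and 0.07, 0.35 and 5.22 TPM in the OA libraries. The factor gene Hand2 stood at 0, 0.05 and 0 TPM in the controls and 0.14, 0.19 and 3.39 TPM in the OA libraries. For these 4 genes the controls held at most 0.21 TPM, and OA replicate 2 was above each control.

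**Figure D2:**
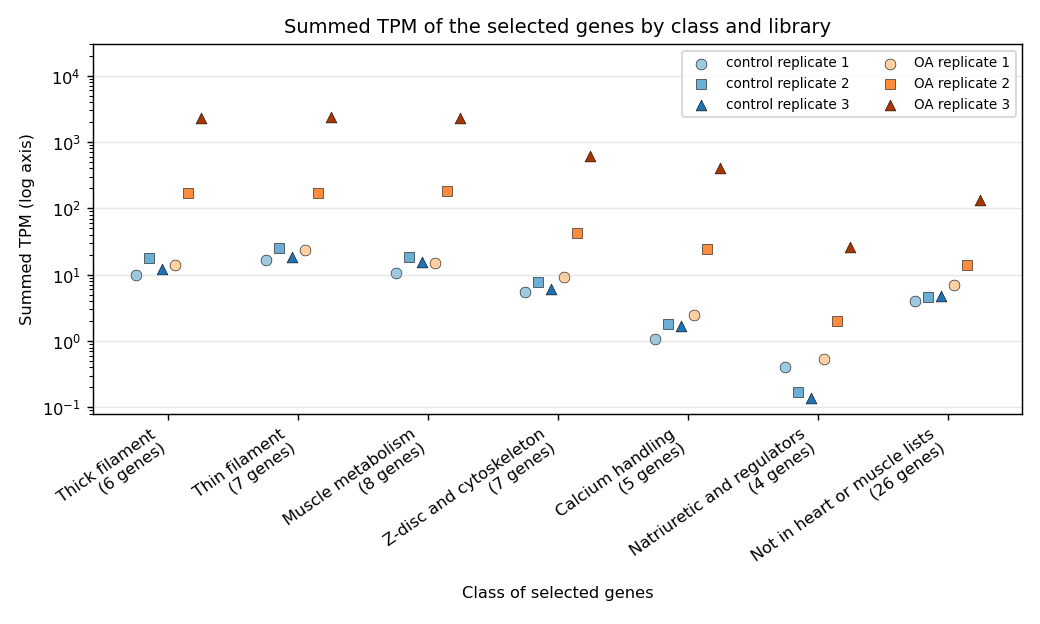
Summed TPM (log axis) of the selected genes by class in each library, 1 point a library, with the number of genes under each class. In each of the 7 sets shown OA replicate 3 is highest and OA replicate 2 next, with thick filament sums of 2324 and 170 TPM.

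The 26 genes outside the heart and muscle lists were mixed in their known roles. Several are muscle or heart genes that the lists did not hold. Hfe2, hemojuvelin, an iron regulator made by muscle and liver, stood at 0.05, 0.11 and 0 TPM in the controls and 0.1, 1.15 and 18 TPM in the OA libraries. Asb11, of a family of ubiquitin ligase adaptors with members in muscle, stood at 0.73, 0.71 and 0.72 TPM in the controls and 0.94, 1.1 and 11.7 TPM in the OA libraries. Lrtm1 stood at 0.04, 0.04 and 0.03 TPM in the controls and 0.04, 0.51 and 8.38 TPM in the OA libraries. Hhatl, a relative of a Hedgehog acyltransferase, stood at 0.18, 0.23 and 0.27 TPM in the controls and 0.13, 0.46 and 6.5 TPM in the OA libraries. Pkp2, plakophilin 2 of the desmosomes that join heart cells, and also of epithelia, stood at 0.54, 0.4 and 0.58 TPM in the controls and 0.54, 0.87 and 6.24 TPM in the OA libraries. The potassium channel subunit gene Kcng2 stood at 0.28, 0.28 and 0.2 TPM in the controls and 0.28, 0.52 and 4.35 TPM in the OA libraries. The control mean was 6.16% of OA replicate 3 for Asb11, 8.12% for Pkp2 and 5.82% for Kcng2, against a median of 0.972% over the 65 genes.

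A second group is known from vessels and connective tissue. Gpihbp1, which holds lipoprotein lipase on capillary endothelium, stood at 0.13, 0 and 0.49 TPM in the controls and 0.73, 0.98 and 10.9 TPM in the OA libraries, and was the 1 listed gene of 15 endothelial markers. Cd300lg, a capillary endothelial surface protein gene, stood at 0.2, 0.24 and 0.27 TPM in the controls and 0.14, 0.59 and 5.15 TPM in the OA libraries. Jam2, a junction protein gene of endothelium, stood at 0.15, 0.39 and 0.28 TPM in the controls and 0.43, 0.79 and 4.1 TPM in the OA libraries. Gas6, a secreted ligand of the TAM receptors made by many cell types, stood at 0.52, 0.73 and 0.85 TPM in the controls and 1.09, 1.7 and 5.51 TPM in the OA libraries. Dpt, dermatopontin of the fibroblast matrix, stood at 0.06, 0.2 and 0.06 TPM in the controls and 0.19, 0.26 and 4.6 TPM in the OA libraries. With Col3a1, a fibrillar collagen gene, at 0.3, 0.23 and 0.24 TPM in the controls and 0.5, 0.6 and 2.81 TPM in the OA libraries, it was among the 2 listed genes of 14 fibroblast markers. Pericyte (6 genes), adipocyte (6), hepatocyte (8), kidney (5), pancreas (6), lung (4), nervous (5) and keratinocyte (4) lists had 0 listed genes, and the 1 listed erythroid gene of 8, Hbb-bt, was not selected.

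The remaining genes are known from several tissues, muscle among them: Asb10 and Dtna below were classed with muscle genes such as Hfe2. Ces1d, a lipid-cleaving carboxylesterase gene of liver and fat, stood at 0.05, 0.11 and 0.05 TPM in the controls and 0.11, 0.64 and 6.39 TPM in the OA libraries. Usp13, a deubiquitinase gene, stood at 0.01, 0.04 and 0.05 TPM in the controls and 0.02, 0.32 and 6.34 TPM in the OA libraries. Lims2, a focal adhesion adaptor gene, stood at 0.12, 0.25 and 0.19 TPM in the controls and 0.44, 0.31 and 4.33 TPM in the OA libraries. Csdc2, an RNA-binding protein gene, stood at 0.04, 0.17 and 0.04 TPM in the controls and 0.13, 0.38 and 4.18 TPM in the OA libraries. A further 11 genes outside the lists were lower, at 1.13 to 3.84 TPM in OA replicate 3, 0.08 to 0.61 TPM in OA replicate 2 and at most 0.30 TPM in any control. They included, beside Col3a1, Asb10, C1qtnf9, Fam189a2, Klf15, Dtna, Maob, Pdzrn3, Slc36a2 and Galnt15. Among them, Klf15 encodes a metabolic transcription factor, Dtna a partner of dystrophin, and Slc36a2, listed at 0 in all 3 controls, an amino acid transporter.

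Just inside the 5-fold threshold were Gas6 (5.06-fold over OA replicate 1), Col3a1 (5.62-fold) and Myh7 (5.81-fold). Just outside it were Lsmem1 (4.51-fold), Prkaa2 (2.74-fold) and Phyhd1 (2.37-fold). Lsmem1, a membrane protein gene, stood at 0, 0 and 0 TPM in the controls and 0.35, 0.26 and 1.58 TPM in the OA libraries. Prkaa2, a catalytic subunit of AMP-activated kinase, stood at 0.82, 0.83 and 0.69 TPM in the controls and 1.13, 1.31 and 3.1 TPM in the OA libraries. Phyhd1 stood at 1.88, 2.69 and 2.77 TPM in the controls and 4.39, 4.4 and 10.4 TPM in the OA libraries. In all 3 of these genes each OA library was above each control. Just inside the minimum of 1 TPM, Galnt15 stood at 0, 0.05 and 0.05 TPM in the controls and 0.04, 0.1 and 1.13 TPM in the OA libraries. Slc36a2 stood at 0, 0 and 0 TPM in the controls and 0.15, 0.1 and 1.21 TPM in the OA libraries. Pdzrn3 stood at 0, 0 and 0.03 TPM in the controls and 0.05, 0.08 and 1.77 TPM in the OA libraries. The 1 gene left out by that minimum was Gm3417, at 1.46, 1.55 and 1.58 TPM in the controls and 0, 0 and 0.17 TPM in the OA libraries, and it was lower in each OA library than in each control. The 5 listed genes of the heart and muscle lists that were not selected all have wider roles. They were Gja1, Acot1, Slc27a1, Etfb and Mef2c, with OA replicate 3 at 0.988 to 1.74 times OA replicate 1. Etfb, an electron carrier gene of fatty acid oxidation, was the most abundant of them, at 168, 164 and 155 TPM in the controls and 184, 188 and 240.5 TPM in the OA libraries.

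OA replicate 2 and the controls were not used in the selection, although they entered the authors' test that listed the genes. OA replicate 2 was above every control for 65 of 65 selected genes. This was so for 51.3% of all 559 listed genes and for 100% of the 222 other genes that the authors' deposited table gives as higher in OA, so listing alone could give it.

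In limma on log2(TPM + 1), OA replicate 2 was set against the 3 controls over all 559 listed genes, with the lone library assumed to vary like the controls. The SEs and p-values below hold only under this assumption. For the 65 genes the OA libraries spread more widely, which the selection favours. Their sums were 71.7, 607 and 8172 TPM in OA replicates 1, 2 and 3, against 48.2, 75.8 and 59.2 TPM in the controls. At a Benjamini-Hochberg adjusted p under 0.05, two-sided, 36 of the 65 genes were higher (55.4%) and 0 lower. The same call was made for 9.84% of all listed genes, and for 8.56% of the 222 others higher in OA. These backgrounds are not matched for size: all 65 genes have an authors' log2 fold change of at least 1, to which OA replicate 2 contributed, and 17 other listed genes do. The median log2 difference was 0.67 over the 65 genes, 0.37 over the 222 others higher in OA and 0.12 over all listed genes. Myl2 was higher by the widest margin (log2 difference 4.06, SE 0.406, adjusted p = 0.0138, limma). Among the other named markers, Mb was higher (log2 difference 3.6, SE 0.435, adjusted p = 0.0223, limma), as was Pln (log2 difference 3.35, SE 0.249, adjusted p = 0.00986, limma). Myh6 was also higher (log2 difference 2.5, SE 0.187, adjusted p = 0.00986, limma), as was Pdk4 (log2 difference 0.92, SE 0.0736, adjusted p = 0.0105, limma). Of the 34 genes at 10 TPM or more in OA replicate 3, 31 were called, the others being Jph2, Asb11 and Gpihbp1. Of the 31 genes below that level, 5 were called (Lrtm1, Ces1d, Corin, Fam189a2 and Klf15). The calls took in 31 of the 39 genes on the heart and muscle lists and 5 of the 26 others, and 0 of the 6 vessel and connective tissue genes named above (Gas6, log2 difference 0.67, SE 0.136, adjusted p = 0.0542, limma). Low genes have small differences on the log2(TPM + 1) scale, so these counts do not show that the 2 sets of genes differ. Without control replicate 2, limma called 0 of the 65 genes, and 0 of all 559 higher or lower, with 45 of the 65 at an unadjusted p under 0.05.

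**Figure D3:**
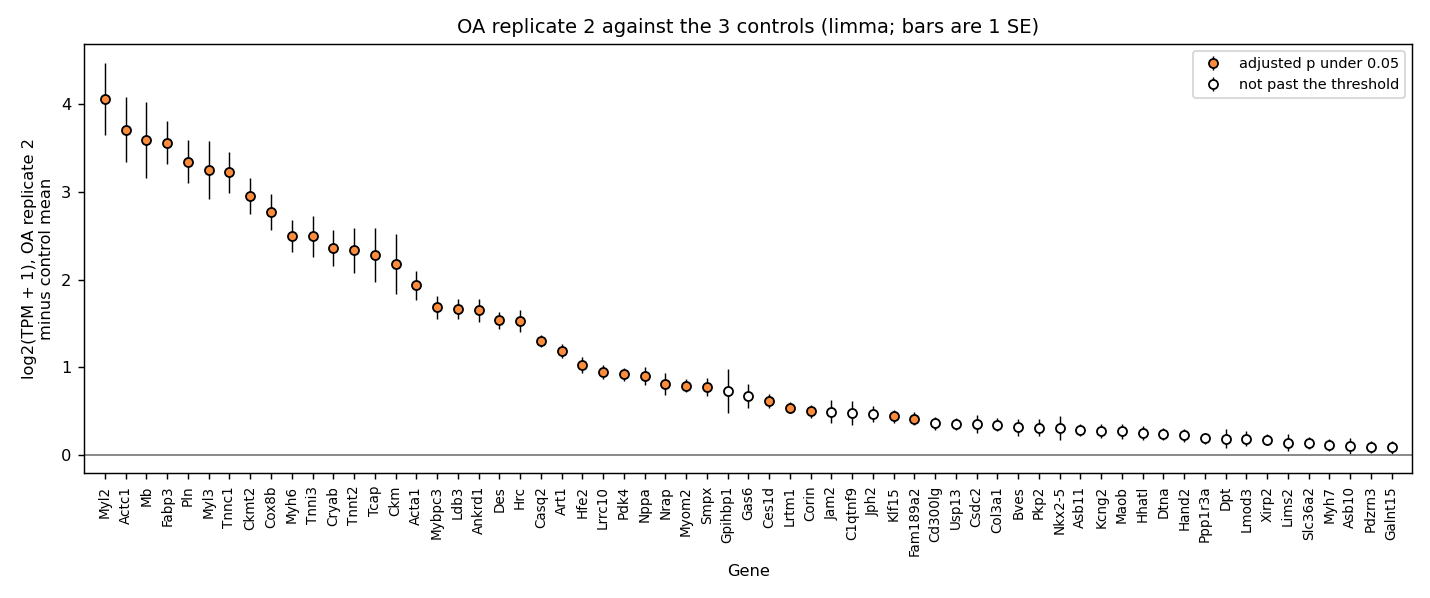
Difference in log2(TPM + 1) between OA replicate 2 and the mean of the 3 controls for 63 of the 65 selected genes, with bars of 1 SE from limma. Filled points have an adjusted p under 0.05 (35 of the 63), and the differences run from 0.09 to 4.06.

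The 65 genes were ranked alike in OA replicates 2 and 3, with different shares for single genes. OA replicate 2 stood at a median of 7.82% of OA replicate 3, with 6.09% and 9.42% as the quartiles. Class medians were 6.73% for thick filament, 7.12% for thin filament, 6.29% for Z-disc, 6.29% for calcium handling, 7.96% for metabolism and 7.54% for the regulators, against 9.67% for the 26 genes outside the lists. The lowest share was in Xirp2 (2.83%), followed by Casq2 (3.48%) and Smpx (3.58%). The highest shares were in Gas6 (30.9%), Col3a1 (21.4%) and Jam2 (19.3%), whose control means were 12.7%, 9.13% and 6.67% of OA replicate 3. With the control mean subtracted from both libraries the median was 6.23% and the range 2.12% to 20.8%. The medians of the classes above then ran from 5.03% (thick filament) to 6.90% (metabolism), against 7.21% for the 26 genes outside the lists. Across the 65 genes, Spearman's rho was 0.93 between OA replicates 2 and 3 and 0.76 between the control mean and OA replicate 3. These are descriptions over genes that share their libraries and were chosen on OA replicate 3, and genes are not independent replicates.

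**Figure D4:**
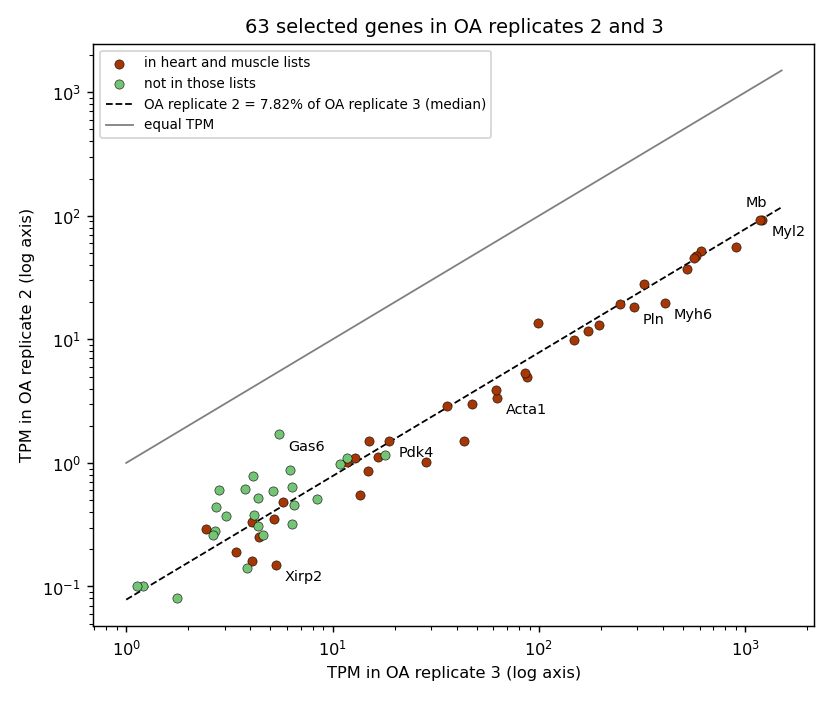
TPM in OA replicate 2 against OA replicate 3 (both log axes), 1 point for each of 63 of the 65 selected genes, with the line of equal TPM and the line of the median share, 7.82%. Every point lies below the line of equal TPM, Gas6 lies farthest above the median line (30.9%) and Xirp2 farthest below it (2.83%).

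The contrast of all 3 OA with all 3 control libraries was partly used in the selection and is given as a description. In the authors' deposited table the 65 genes had log2 fold changes from 2.0 (Gas6) to 9.99, with a median of 5.21, and Q values from 0.00346 to 0.0496. The highest fold change there was that of Casq2. Of the 82 listed genes with an authors' log2 fold change of at least 1, 65 were these genes. Limma on log2(TPM + 1) called 0 of the 65 (0 at an unadjusted p under 0.05), beside 36% of all listed genes called higher. It called 20 of the 65 without OA replicate 1, beside 31.7% of all listed genes called higher in that fit, and 10 without OA replicate 3, beside 31.1%. Neither count of members is above the share over the whole table. The median log2 ratio of mean TPM was 5.14 with all OA libraries and 2.05 without OA replicate 3, over the 64 genes with a control value above 0.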

How the data were processed

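RNA from 3 control and 3 OA libraries was sequenced by the authors; per the labels' protocols, TRIzol and a column kit were used for RNA and an MGI kit for the libraries. Per the submitters' processing notes the tools include DESeq2 1.4.5, RSEM 1.3.1 and Bowtie2, and the build is mm10; which step each served is not given. Per the file headers, the deposited table holds TPM per library and mean TPM per group. Also deposited by the authors are a log2 fold change and a P value (p-value) and Q value (q-value) for each gene. Read numbers cannot be had from TPM, so depth is unknown and so is the counting error of low values.

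Columns were matched to libraries by title. Limma 3.58.1 (R 4.3.3) was run on log2(TPM + 1) over all 559 genes without a filter or covariate. It was also run on simulated data in which every library had the spread of the controls. A wider spread in the OA libraries was therefore not covered by the simulation. Python 3.11.15, pandas 2.3.3 and matplotlib 3.10.9 made tables and plots. The 65 genes, the 23 lists, the roles of genes outside them and the motifs were chosen with earlier results of these data known. Values in every library are given for Myh6, Myl2, Mb, Pln and Pdk4, the 4 highest genes of each heart list, the 15 highest outside them and those nearest the thresholds of the selection; Acta1 and Etfb were added after their values were seen. Results for 2 of the 65 genes are not reported here by name. Alternatives were another pseudocount, a level filter, equal medians, another limma prior, a replicate block and each library left out.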

Additional observations from a re-analysis of the deposited data

How the results depend on the processing

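Of the 65 genes, the number called higher in OA replicate 2 against control ranged from 0 (without control replicate 2) to 50 (without control replicate 3) when a control was left out, while the calls higher among all 559 went from 55 to 0 and 213 (38.1%) in the same fits. The number of the 65 was 36 to 44, beside 47 to 73 of all genes tested, with a pseudocount of 0.1, a mean TPM of at least 1, equal medians or an intensity trend with a robust fit. With mean TPM of at least 1, 43 of the 65 genes were tested. For all OA against control, the count was 0 under those settings, beside 162 to 209 of all genes tested. It was also 0 with control replicate 1, 2 or 3 left out, beside 0, 87 and 119 of all 559 genes. Without OA replicate 1, 20 of the 65 were called, beside 31.7% of all listed genes. Without OA replicate 2 the count was 0, beside 0 of all 559. Without OA replicate 3 it was 10, beside 31.1%. With the replicate number as a block the count of the 65 was also 0, and 0 of all 559 genes were called higher. Over all listed genes, deviations from the group means were correlated between control and OA libraries. Same-numbered libraries gave 0.33, −0.11 and −0.08 for replicates 1, 2 and 3. Differently numbered ones gave values as large, such as 0.35 for control replicate 2 with OA replicate 3 and −0.40 with OA replicate 1. The numbers were therefore not taken as pairs. With a 3-fold threshold 66 genes were selected, with a 10-fold threshold 59, with a minimum of 5 TPM 44, and with equal medians 64. Scaling to equal medians lowered the summed TPM in OA replicate 3 from 8172 to 7861. As depth is unknown, low TPM values have an unknown counting error.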

Other observations

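The heart muscle transcripts were not absent from the other libraries. In control replicates 1, 2 and 3, 13, 14 and 14 of the 65 genes reached 1 TPM, and 12 genes did so in every library. Tnnt2 was the highest of them in control replicate 2, at 10.6 TPM. Control replicate 2 alone was the highest control for 30 of the 65 genes, control replicate 3 for 17 and control replicate 1 for 11. OA replicate 1 was above every control for 30 genes (45.1% of all listed genes were so), within the range of the controls for 32 and below it for 3.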
